A study of Mus musculus with 35 samples.

Results

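Lung metastases were compared with primary pancreatic tumors in the 13 RNA-seq libraries that carry the label Smad4 off, 8 from lung and 5 from pancreas, out of 35 libraries in all. The libraries were chosen by their labels of organ and Smad4 status alone. The cells came from KC-shSmad4 mice, a model of pancreatic ductal adenocarcinoma (PDAC) in which Ptf1a-Cre switches on the engineered alleles of the model, an mKate2 reporter among them, in the pancreas and in which a doxycycline (Dox)-inducible, GFP-linked shRNA targets Smad4. Tumor-derived lines of these mice were given to young adult female athymic nude (Foxn1nu) hosts, into the pancreas for primary tumors and into the tail vein for lung metastases, and mKate2-positive cells were sorted from the tumors. By their label the 13 hosts stayed on Dox, which the Smad4 levels below go against, and tumors were taken at the time points called day 7 (3 primary tumors and 4 lung metastases) and day 14 (2 and 4). Spontaneous deletions of Cdkn2a/b are known from such lines. The day counts from the time of Dox withdrawal in the other arm, 4 weeks after injection for pancreas and 6 weeks for lung, so that time since injection and organ cannot be told apart either. Nude hosts lack most T cells but keep other leukocytes, a tail-vein injection leaves out the escape from the primary site, and the labels do not give the line behind each library, so that line and organ cannot be told apart. Nothing in the labels ties libraries of the same mouse number to a shared animal or litter, and P values measure the spread between these libraries.

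Tumor cells that settle in another organ meet another matrix, another vasculature and other neighboring cells. PDAC cells are epithelial and can carry programs of the foregut lineage, such as gastric-type mucus genes driven in normal tissue by HNF4 and GATA factors. Primary PDAC is known for its dense stroma of fibroblasts and collagen. Alveolar cells of the lung are known for surfactant genes and acinar cells of the pancreas for digestive enzymes, which makes these genes markers of host RNA in sorted tumor cells.

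Each library held 12.1 M to 32.2 M counts (median 17.9 M), and 3 counts, the smallest level taken as measurable, correspond to 0.0932 to 0.248 CPM (counts scaled to a common library total). Intervals and floors given here cover counting error only. Smad4, the targeted gene, was at 107, 110, 92.3, 96.1 and 106 CPM in the primary tumors and at 77.9 to 128 CPM (median 100) in the lung metastases. These levels did not separate the organs (log2 fold change -0.16 ± 0.11 (SE), adjusted p = 0.27, edgeR). In the whole series the label goes against this gene, since libraries labelled off hold the higher Smad4 mRNA (means of 18.2 CPM in lung and 21.7 CPM in primary tumors labelled on), and "labelled off" is used here only as a name. Of the 8 lung libraries, 3 stood apart (day 7 mouse 4, day 14 mice 3 and 4): they had mt-Co3 counts, which the other 10 libraries lacked, and Gapdh at 2833 to 3993 CPM against 829.4 to 1466 CPM elsewhere. Results are therefore also given for the 10 libraries without mt-Co3 counts, an alternative added after the data were seen.

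Marker RNA of the host organ was measured on both sides. The surfactant gene Sftpc, which marks alveolar type II cells, was at 37.8 to 242 CPM (median 104) in the lung metastases and at 0 in all 5 primary tumors, at least 4416-fold higher against a floor of 3 counts over the primary tumors (adjusted p = 8.0e-06, edgeR). Sftpa1 was at 5.4 to 57.1 CPM in lung and at 0 in the primary tumors, at least 884-fold higher. Scgb1a1, the secretoglobin of airway club cells, was at 5.53 to 54 CPM in lung against 3 counts in all primary tumors together, a ratio of 867 (95% counting interval 297 to 4203). Sftpb stood at a ratio of 1199 (332 to 9904) and Inmt, a methyltransferase abundant in lung fibroblasts, at 1320 (365 to 10898). In all, 8 of 9 alveolar type II genes, 7 of 8 airway genes and 8 of 12 endothelial genes were higher in lung, and none of these 3 lists had a gene lower.

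The pancreas left the opposite trace. All 18 genes of acinar cells, which make digestive enzymes, were lower in lung, with a summed level of 1394 to 4944 CPM in the primary tumors and 5.92 to 14.5 CPM in the lung metastases. The lipase gene Pnlip was at 554, 301, 215, 104 and 506 CPM in the primary tumors and at 0 in all 8 lung libraries, at least 16093-fold lower. Cela2a and Cpb1 were also at 0 in lung, at least 10471-fold and 10004-fold lower. Ctrb1, a chymotrypsinogen, was at 353 to 1207 CPM in primary tumors and at no more than 0.134 CPM in lung. Cpa1 had 1 count over all lung libraries. The 6 islet genes tested were lower too. Several of these enzymes have near-identical copies, among which reads may be split.

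RNA of the fibroblast list separated the organs as well. All 10 fibroblast genes were lower in lung, and their summed level was 12327 to 18431 CPM in the primary tumors against 165 to 2258 CPM in the lung metastases, without overlap. Col1a1, the main collagen chain of fibroblasts, named here after its values were seen, was at 3283 to 5291 CPM in primary tumors and 29.5 to 364 CPM in lung. Of 8 genes of smooth muscle and pericytes, 6 were lower in lung. The 11 carcinoma epithelium genes moved the other way, at 2898 to 4965 CPM summed in primary tumors and 7582 to 14435 CPM in lung, again without overlap. Of these, Krt8, Krt18, Krt19, Cdh1 and Elf3 were higher, and the median over the 11 was 0.93 on the log2 scale against 0.05 over all genes tested. Fewer cells of a type and less RNA per cell cannot be told apart in such bulk samples. Xist, given below, did not separate the organs, and whether RNA of the fibroblast list came from host cells or from tumor cells was not tested.

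Xist is expressed by female host cells, and the lines derive from male embryonic stem cells, but the 4 Y-linked genes were at 0 CPM in all primary tumors and at no more than 0.0787 CPM in lung, so that Xist marks host cells only if the lines hold a single X. Xist was at 7.21 to 22.2 CPM in primary tumors and 3.66 to 23.5 CPM in lung, and the groups overlapped (log2 fold change -0.26, adjusted p = 0.60). The 3 lung libraries with mt-Co3 counts held 3.66 to 4.57 CPM and the other 5 held 7.30 to 23.5 CPM. The summed level of 9 pan-leukocyte genes was 117 to 166 CPM in primary tumors and 28.3 to 127 CPM in lung, but only Arhgdib of the 9 was called, and their median log2 fold change was -0.17. Of 11 macrophage and monocyte genes 7 were lower in lung, among them Csf1r and the complement genes C1qa, C1qb and C1qc. The summed level of the 11 overlapped, with medians of 163 CPM in lung and 168 CPM in primary tumors, and was 119 to 447 CPM in the 5 lung libraries without mt-Co3 counts and 53.4 to 89.2 CPM in the 3 with them. The alveolar macrophage genes Siglecf, Chil3 and Ear2 were higher.

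**Figure D1:**
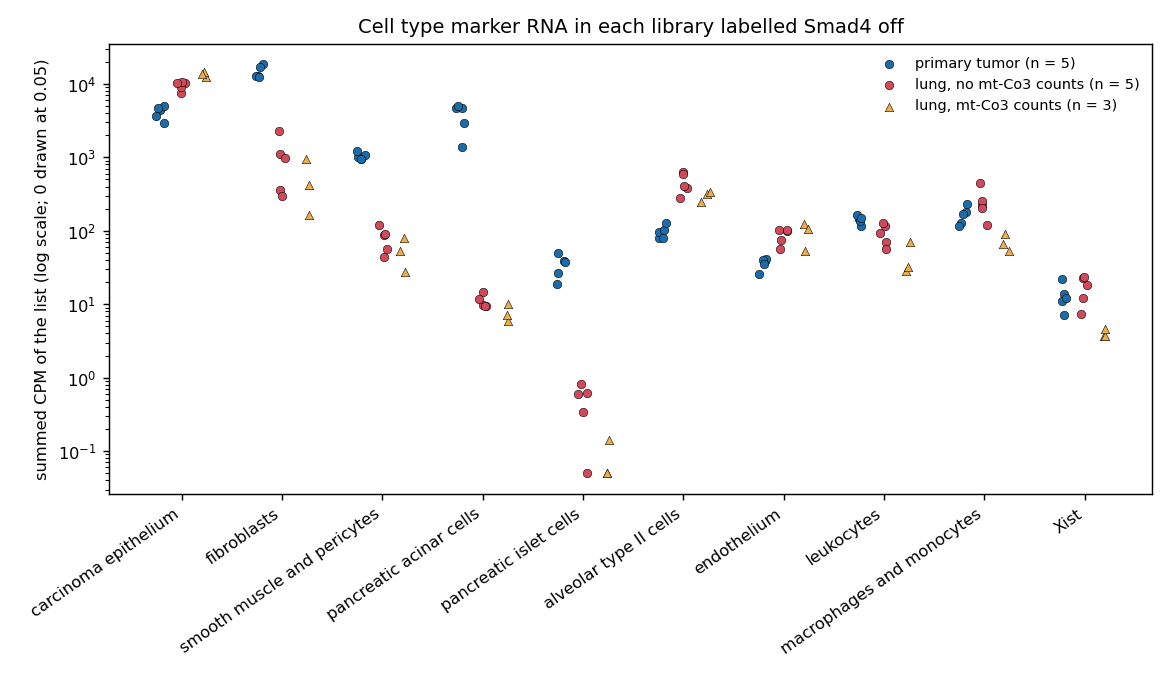
Summed CPM of cell type marker lists (log axis) in each of the 13 libraries labelled off, 1 point per library. Blue circles are the 5 primary tumors, red circles the 5 lung metastases without mt-Co3 counts and yellow triangles the 3 lung metastases with them. Fibroblast, smooth muscle and acinar RNA lie higher in every primary tumor, and carcinoma epithelium and alveolar type II RNA lie higher in every lung metastasis.

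Over all genes, 2108 of 16121 were higher in lung metastases (13.1% of those tested) and 1277 were lower (7.92%), where a call needed more than a 2-fold difference and an adjusted p below 0.05 (quasi-likelihood test of edgeR, Benjamini-Hochberg adjusted, with day as covariate). The lung and primary tumor libraries did not overlap for 1280 of the genes higher and 903 of the genes lower, and the share of all tested genes without overlap was 20.8%. In the 10 libraries without mt-Co3 counts, 2091 of 15484 genes were higher (13.5%) and 1297 lower (8.38%). Of the genes called in all 13 libraries, 1780 of 1942 higher genes and 1155 of 1266 lower genes tested there were called again in the same direction.

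To set host RNA apart, each gene was correlated with Xist and with the host marker scores within groups of the same label and day, over all 14 lung libraries of both labels for genes higher and all 10 primary tumor libraries for genes lower. By a Pearson r of at least 0.7, or by being a marker, the host RNA set held 923 of the 2108 genes higher (43.8%), against 40.2% of all tested genes. Among genes lower, it held 696 of 1277 (54.5%) against 39.2% of all tested genes. The share among genes higher was thus close to that of any gene, and fell to 37.0% against 38.4% when libraries were also centered on mt-Co3 counts, a step added after the data were seen. For genes lower, a second measure added after seeing the data was the correlation with the fibroblast score over the 14 lung libraries. It reached 0.7, or the gene was a fibroblast marker, in 284 of the 1277 genes lower (22.2%) and in 5.58% of all tested genes. Neither measure held for 476 genes lower (37.3%), against 58.2% of all tested genes. Of the genes higher, 906 (43.0%) exceeded the median rise of the carcinoma epithelium list by more than 1 log2 unit. These correlations rest on few libraries that share depth and sorting. A gene below the threshold may still come from host cells, and a gene of the host RNA set may come from tumor cells. Counts of list genes moving with host RNA, given below, stand beside 40.2% of all tested genes for genes higher and 39.2% for genes lower. Counts of list genes called stand beside 13.1% higher and 7.92% lower among all tested genes, here and in the other sections.

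**Figure D2:**
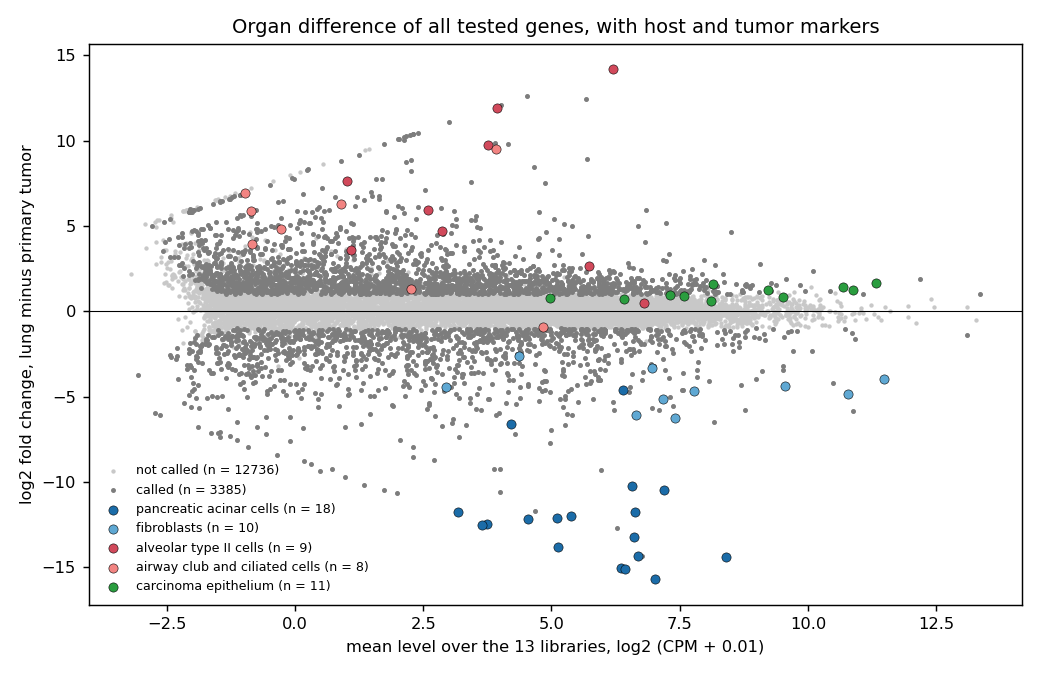
Log2 fold change of lung metastases minus primary tumors (y axis) against mean level over the 13 libraries (x axis, log2 of CPM + 0.01), 1 point per tested gene. Dark gray points passed the test, and colored points are marker genes of acinar cells, fibroblasts, alveolar type II cells, airway cells and carcinoma epithelium. All 18 acinar and 10 fibroblast genes lie below 0.

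Outside the host RNA set, the genes higher in lung with the lowest adjusted p were Wwc1, Gss, Lrrc26, Ociad2, Gclc, Ces2a, P2ry2, Myo1a, Rps6ka1 and Rasgef1b. Wwc1, which encodes the Hippo pathway scaffold KIBRA, was at 42, 27.6, 33.8, 26 and 35 CPM in the primary tumors and at 82.5 to 133 CPM (median 110) in lung (log2 fold change 1.67 ± 0.11, adjusted p = 1.6e-07). Ces2a, a carboxylesterase of gut and liver, was at 12.1, 6.31, 12.5, 8.65 and 7.55 CPM in the primary tumors and at 113 to 279 CPM (median 164) in lung, a 17.0-fold difference. Reads of Ces2a may be shared with other Ces2 genes. Every lung library lay above every primary tumor for both genes.

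The brush border myosin gene Myo1a was at 2.12 to 3.45 CPM in primary tumors and 30.5 to 99.8 CPM in lung (log2 fold change 4.23 ± 0.30, adjusted p = 3.2e-07). The 3 lung libraries with mt-Co3 counts formed its lower end, at 30.5 to 33.3 CPM, still above all primary tumors. Gclc and Gss encode the enzymes of glutathione synthesis. Gclc was at 52 to 89.7 CPM in primary tumors and 183 to 344 CPM in lung (1.98 ± 0.13), and Gss at 46.1 to 58 and 110 to 136 CPM (1.15 ± 0.08). The purinergic receptor gene P2ry2 was at 20.6 to 26.6 CPM in primary tumors and 56.1 to 74.2 CPM in lung (1.41 ± 0.10). Rps6ka1, which encodes the ERK-regulated kinase RSK1, was at 22.5 to 39.1 and 103 to 156 CPM (1.98 ± 0.14). Lrrc26, an auxiliary subunit of potassium channels, differed by 2.76 ± 0.19, Ociad2 by 1.41 ± 0.10 and Rasgef1b, an exchange factor of RAP proteins, by 1.92 ± 0.14.

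The 5 largest fold changes outside the host RNA set, among genes without overlap, belonged to genes at or near 0 in primary tumors. The sulfate transporter gene Slc13a1 was at 1.4 to 18.2 CPM in lung and at 0 in all primary tumors, at least 248-fold higher, and the alkaline phosphatase gene Akp3 at 0.472 to 8.5 CPM and 0, at least 130-fold higher. Clca4b, Slc9a3 (the sodium-proton exchanger of the brush border) and Clec2h had 1, 1 and 2 counts over all primary tumors and reached ratios of 848 (152 to 33486), 764 (137 to 30174) and 410 (113 to 3385). For Slc13a1, Akp3 and Clec2h the lung libraries with mt-Co3 counts held the lowest levels.

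**Figure D3:**
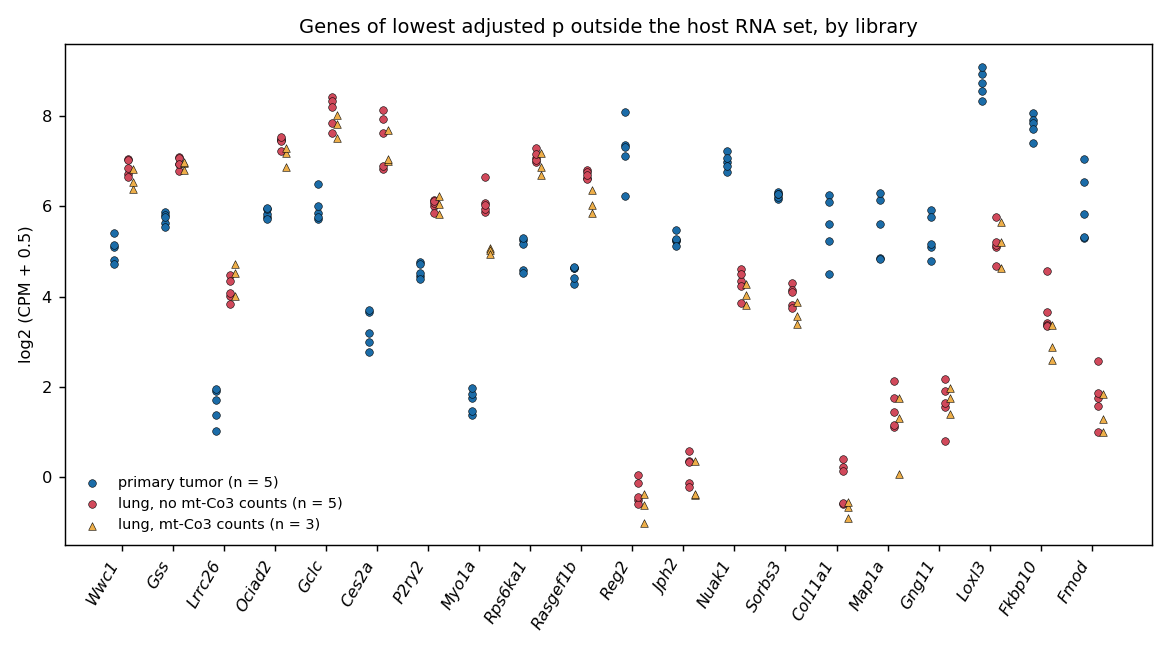
Levels, log2 of CPM + 0.5, of the 10 genes higher and the 10 genes lower in lung with the lowest adjusted p outside the host RNA set, 1 point per library. Blue circles are primary tumors (n = 5), red circles lung metastases without mt-Co3 counts (n = 5) and yellow triangles those with them (n = 3). The organs do not overlap for any of the 20 genes, which the rule for naming them required.

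Transcription factors of foregut and pancreas identity were mostly higher in lung. Of 20 tested, 13 were higher and 1 lower, with a median of 1.22 against 0.05 over all genes, and 8 of the 13 moved with host RNA. Hnf4a, a nuclear receptor of gut and liver epithelium, was at 138, 97.5, 120, 88.9 and 101 CPM in the primary tumors and at 240 to 378 CPM (median 316) in lung (1.49 ± 0.11, adjusted p = 3.9e-07). Gata5 was at 29.8, 16.3, 18, 26.2 and 24.6 CPM in the primary tumors and 75.7 to 116 CPM (median 93.5) in lung, 4.00-fold higher (adjusted p = 4.4e-07). Both genes were higher in every lung library. Hnf4a moved with host RNA within the lung groups, while Gata5 did not. Nkx2-1, the lung and thyroid factor, was at 0.195 to 1.24 CPM in lung and at 0 in primary tumors, and also moved with host RNA. The gene lower in this list was Sox2.

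Promoters of 2 genes higher in lung are shown because Hnf4a rose: letters that HNF4 factors are known to bind stand just before their start. They are the 2 genes with these letters and the lowest adjusted p among non-overlapping genes outside the host RNA set, and the motifs were chosen after results were known. Trim31 encodes a ubiquitin ligase of the gut and Cyp2c65 a cytochrome P450. Each run is the 250 bases before the RefSeq start (GRCm38.p6), 5′ to 3′ on the strand of the gene, with the motif in capitals.
Trim31, chr17:36897880-36898129, plus strand, HNF4: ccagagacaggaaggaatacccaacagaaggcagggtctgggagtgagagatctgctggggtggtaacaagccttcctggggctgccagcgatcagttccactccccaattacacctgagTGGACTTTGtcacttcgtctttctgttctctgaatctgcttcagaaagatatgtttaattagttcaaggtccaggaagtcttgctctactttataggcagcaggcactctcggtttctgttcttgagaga
Cyp2c65, chr19:39060756-39061005, plus strand, HNF4: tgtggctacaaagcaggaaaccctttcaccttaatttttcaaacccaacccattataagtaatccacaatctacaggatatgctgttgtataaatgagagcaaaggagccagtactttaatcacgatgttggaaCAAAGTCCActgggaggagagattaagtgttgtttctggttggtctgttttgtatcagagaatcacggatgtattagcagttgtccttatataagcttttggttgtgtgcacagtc

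Trim31 was at 4.75 ± 2.27 CPM (SD, n = 8) in lung and 0.228 ± 0.118 CPM (n = 5) in primary tumors, and Cyp2c65 at 10.9 ± 4.24 and 1.21 ± 0.74 CPM. Read on both strands, the HNF4 letters CAAAGTCCA were found for 8 of 686 matched genes higher outside the host RNA set (1.17%), for 0.493% of 11350 tested genes and for 0.451% of all 27025 genes with a promoter. Among 836 matched genes lower, the host RNA set included, the share was 0.478%. Among all 1316 matched genes higher, with that set included too, it was 1.37%. Of the further motifs searched, the AP-1 letters TGAGTCA stood before 9.48% of the 686 genes and 6.99% of the 1316. Their share was 4.47% of tested genes and 5.62% of genes lower. The CDX letters TTTATTG stood before 4.96% of the 686 genes against 3.07% of tested genes. The shares were 4.52% against 4.02% for RUNX (TGTGGTT), 4.23% against 3.30% for TEAD (CATTCCA, 3.95% of genes lower), 0.875% against 0.467% for NRF2 (TGACTCAGC, which contains the AP-1 letters of the other strand) and 45.8% in both for SMAD (GTCTG). A match is a description of the sequence and not a bound site.

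Stomach-type genes showed a like picture. Of 19 tested, 13 were higher and 1 lower, with a median of 3.01. Of the 13, 6 moved with host RNA, near the 40.2% of all tested genes that did so. The trefoil factor Tff2, a secreted mucus peptide, was at 38.4, 30.2, 44.6, 52.2 and 52.8 CPM in the primary tumors and at 208 to 641 CPM (median 344) in lung (3.01 ± 0.29, adjusted p = 3.3e-06). Tff3 was at 1.62 to 2.58 and 17.3 to 49.7 CPM (3.78 ± 0.30). Neither gene had overlapping groups. Cldn18, a claudin of both stomach and alveoli, was at 0.0589 to 0.391 and 2.15 to 7.78 CPM and moved with host RNA. Spink1, a trypsin inhibitor that acinar cells also make, was the gene lower, at 3.89 to 20.1 CPM in primary tumors and no more than 0.269 CPM in lung.

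Epithelial junction genes were higher for 17 of 29 and lower for 2, with a median of 1.30, and 10 of the 17 moved with host RNA. Cldn3 was at 7.28 to 11 CPM in primary tumors and 24.3 to 71.6 CPM in lung (2.23 ± 0.20), Cldn2 at 253 to 320 and 580 to 1206 CPM (1.57 ± 0.15) and Cgn, which encodes the tight junction protein cingulin, at 13.1 to 22.2 and 35.6 to 64.6 CPM (1.51 ± 0.13). Cldn1 went the other way, at 16.9 to 38.6 CPM in primary tumors and 0.0393 to 1.6 CPM in lung (-5.08 ± 0.47), and Cldn10 was also lower. The summed carcinoma epithelium level, given above, was also higher in lung, and its part in these differences was not tested.

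Of 26 NRF2 and oxidative stress genes 7 were higher and none was lower. Beside Gclc these included the glutathione transferase genes Gsta4 (1.96 ± 0.19), Gsta3 (2.53 ± 0.33) and Gsta1 (5.83 ± 0.64). Gsta1 was at 3.32 to 8.93 CPM in lung and no more than 0.362 CPM in primary tumors. Gsta1 has a near-identical copy, with which reads may be split. MHC class I presentation genes were higher for 8 of 17, led by H2-Q7, H2-K1, H2-D1 and H2-Q6, whose reads may likewise be shared. H2-K1 was at 272, 132, 201, 184 and 184 CPM in the primary tumors and 409 to 1214 CPM (median 462) in lung (1.59 ± 0.33, adjusted p = 1.6e-03). Its highest library was 1 of those with mt-Co3 counts, and without them its log2 fold change was 1.29. That of H2-D1 went from 1.17 to 0.84 and no longer passed the fold threshold.

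Secreted inflammatory factors were higher for 11 of 27 and lower for 4. Cxcl15, the lungkine of airway and alveolar epithelium and itself a host marker, was at 4.54 to 22.9 CPM in lung and 0.0558 to 0.242 CPM in primary tumors. The macrophage growth factor Csf1 was lower in lung, at 144 to 202 CPM in primary tumors and 21.8 to 52.4 CPM in lung (-2.19 ± 0.16), as were Cxcl12 (-3.74 ± 0.42) and Cxcl14 (-2.19 ± 0.25). Among CDK inhibitors and p53 targets, Gdf15, Trp53inp1, Perp, Pmaip1 and Cdkn1c were higher and Sesn1 and Cdkn2c lower, of 19 tested. Sesn1, at -1.10 ± 0.12, was not called without the libraries with mt-Co3 counts.

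Among genes lower in lung, the lowest adjusted p outside the host RNA set belonged to Reg2, Jph2, Nuak1, Sorbs3, Col11a1, Map1a, Gng11, Loxl3, Fkbp10 and Fmod. Reg2, a secreted lectin of injured pancreas, was at 138, 273, 163, 74.8 and 159 CPM in the primary tumors and at 0 to 0.537 CPM in lung (-9.29 ± 0.34, adjusted p = 1.6e-09). Jph2, which tethers membranes in muscle, was at 37.1, 38, 44.3, 38.2 and 34.3 CPM and at 0.26 to 1.01 CPM (-6.08 ± 0.24). The AMPK-related kinase gene Nuak1 was at 107 to 149 CPM and 13.7 to 24 CPM (-2.86 ± 0.13). The organs stood far apart for all 3. Whether Reg2 RNA came from host pancreas was not tested.

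Several of these genes serve the collagen matrix. Loxl3, a lysyl oxidase that crosslinks collagen, was at 322 to 545 CPM in primary tumors and 24.5 to 53.9 CPM in lung (-3.63 ± 0.21), and Fkbp10, a collagen chaperone, at 168 to 269 and 5.6 to 23.3 CPM (-4.44 ± 0.25). The collagen chain gene Col11a1 differed by -7.20 ± 0.36, the proteoglycan gene Fmod by -4.62 ± 0.27, Map1a by -4.45 ± 0.23, Gng11 by -4.01 ± 0.22 and Sorbs3, a focal adhesion adaptor, by -2.48 ± 0.12. Of the 13 lower genes named by adjusted p or fold, 7 followed the fibroblast score over the lung libraries at an r of at least 0.7, among them Fkbp10 (0.90), Jph2 (0.89), Sorbs3 (0.80) and Nuak1 (0.78). For Loxl3 the value was 0.28 and for Gng11 0.23. The part of fibroblast RNA in these differences was not tested. Cpa4 and Klk1b5 were at 0 in all lung libraries, at least 350-fold and 46.4-fold lower, and Lrtm1 had 1 count there.

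Mesenchymal genes were lower for 7 of 14 and higher for none, with a median of -1.17. The homeobox factor Prrx1 was at 103 to 192 CPM in primary tumors and 1.63 to 11.7 CPM in lung (-5.16 ± 0.36), and the microfibril gene Fbn1 at 1288 to 2072 and 38.4 to 326 CPM (-3.45 ± 0.35). Zeb2, a repressor of E-cadherin that leukocytes also express, was at 87.1 to 96.3 and 26.8 to 55.9 CPM (-1.21 ± 0.13). Of the 7, 6 moved with host RNA. Matrix proteases and inhibitors were lower for 9 of 24 and higher for 5. Of the 9, 7 moved with host RNA and 4 followed the fibroblast score in lung. Timp1 fell by 2.21 ± 0.20 on the log2 scale, Adamts4 by 3.67 ± 0.21, Adamts5 by 3.59 ± 0.31 and the membrane protease gene Mmp14 by 1.02 ± 0.11.

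TGF-beta signals through TGFBR1 and TGFBR2 to SMAD proteins, and its ligands are held in the matrix by LTBP proteins. No gene of this group of 19 was higher and 6 were lower. The ligand gene Tgfb3 was at 220, 280, 307, 286 and 277 CPM in the primary tumors and 49.7 to 92.5 CPM (median 71) in lung (-2.05 ± 0.13, adjusted p = 1.2e-07), and Tgfb2 at 62.8 to 105 and 3.46 to 17.1 CPM (-3.36 ± 0.31). Of the receptors, Tgfbr2 was at 330 to 455 and 102 to 228 CPM (-1.33 ± 0.15), and the latent binder Ltbp1 at 600.2 ± 87.0 CPM (SD, n = 5) and 241 ± 41.7 CPM (n = 8), a log2 fold change of -1.41 ± 0.13 (SE). For 5 of the 6 genes lower the r with the fibroblast score in lung was at least 0.7. The targets of TGF-beta and BMP split, with 3 of 25 higher and 9 lower. Id1, a BMP target that blocks basic helix-loop-helix factors, was at 42.6, 23.6, 37.4, 37.3 and 40.6 CPM in the primary tumors and 116 to 165 CPM (median 128) in lung (1.78 ± 0.15, adjusted p = 1.1e-06). The feedback inhibitor gene Pmepa1 was at 443 to 595 and 149 to 330 CPM (-1.14 ± 0.15), and Tgfbi at 416 to 582 and 20.3 to 87.8 CPM (-3.42 ± 0.29).

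Integrins, the matrix receptors, were lower for 7 of 21 and higher for 4. Itgb5 (-1.28 ± 0.13), Itga10 (-2.81 ± 0.29) and the collagen receptor gene Itga11 (-3.75 ± 0.48) were lower, and Itga1, another collagen receptor gene, was higher at 52.8 to 157 CPM against 22.7 to 48.4 CPM (1.83 ± 0.20). Laminins were lower for 4 of 11, Lama4 (-5.33 ± 0.37), Lamb1 (-1.67 ± 0.16), Lama1 and Lama2, and higher for 1. All 4 laminin genes lower moved with host RNA, and 3 followed the fibroblast score in lung. In the WNT and Hedgehog list 6 of 32 were higher and 9 lower. The ligand genes Ihh (2.82 ± 0.22) and Wnt4 (2.14 ± 0.17) were higher, and the Hedgehog effector Gli3 (-2.45 ± 0.22) and the ligand gene Wnt9a (-4.21 ± 0.39) lower. Wnt9a and Gli3 followed the fibroblast score in lung, with an r of 0.87 and 0.86.

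Hypoxia and glycolysis genes were lower for 8 of 28 and higher for none, and 6 of the 8 moved with host RNA. The collagen prolyl hydroxylase genes P4ha1 (-2.31 ± 0.16) and P4ha2 (-1.69 ± 0.18) had the lowest adjusted p, and the carbonic anhydrase gene Car9 was at 153, 73.4, 52.9, 113 and 100 CPM in the primary tumors and 18.8 to 45.1 CPM (median 29) in lung (-1.76 ± 0.25). Egln3 was 2.84-fold lower with overlapping groups. Few genes of growth-related lists were called: 0 of 28 G2 and mitosis genes, 1 of 27 S phase genes (E2f1, -1.03 ± 0.15) and 0 of 34 oxidative phosphorylation genes passed, with medians of -0.57, -0.09 and 0.05. In the EGF and RAS list Tgfa was higher (1.21 ± 0.15) and Nrg1, Etv1 and Etv5 lower, with 4 and 3 of 24 called in all. Interferon genes were called in both directions, with Oasl1 and Ifih1 among 6 higher and Ifit2 and Isg15 the 2 lower, of 28. The shares over all tested genes were 13.1% higher and 7.92% lower, and the counts of these last 2 lists are not far from them. Of 15 YAP and TEAD genes only Wwtr1, which encodes TAZ, passed (-1.35 ± 0.14). Atf3 and Junb were the 2 of 20 immediate early genes higher. Junb was at 3483 to 4321 CPM in the 3 libraries with mt-Co3 counts and 1724 to 2147 CPM in the other lung libraries, and its log2 fold change went from 1.02 to 0.49 without the former. Of 21 cholesterol synthesis genes Idi1 alone was called, and it was not called without those libraries.

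**Figure D4:**
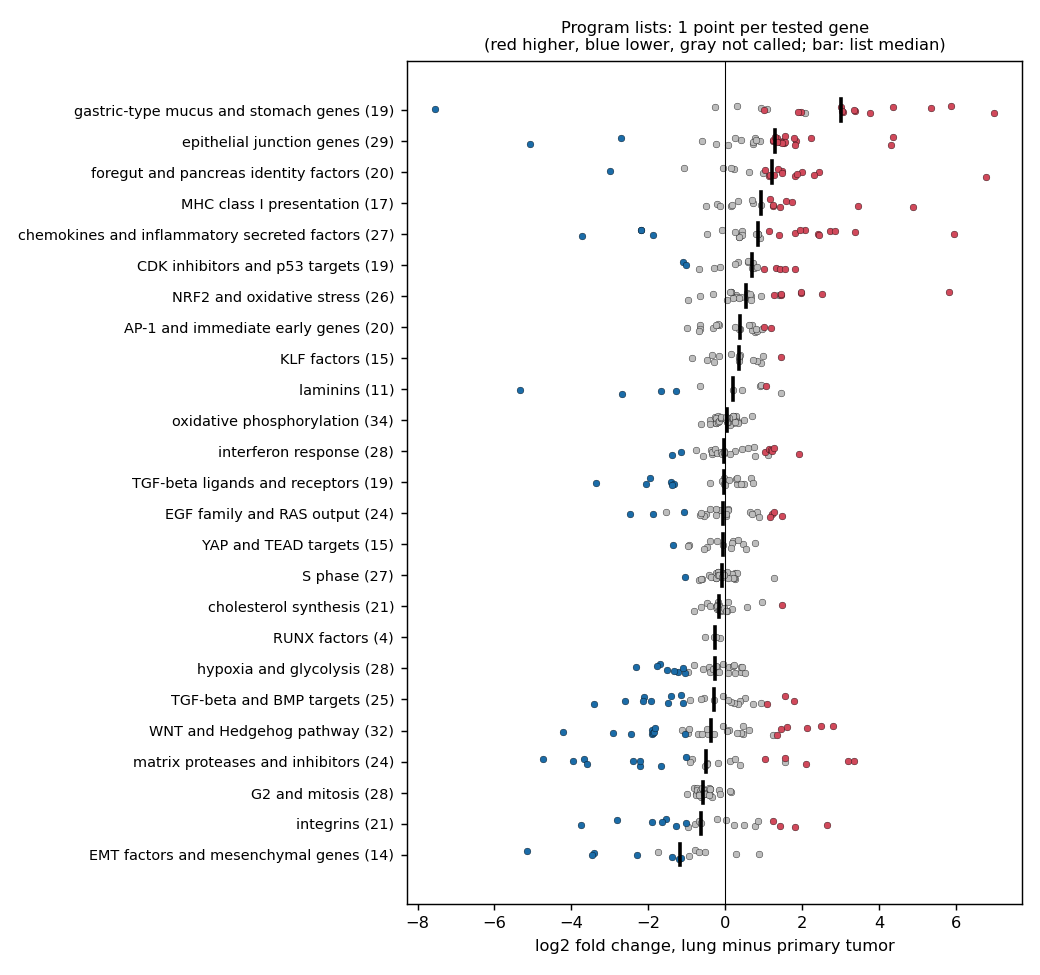
Log2 fold change of lung metastases minus primary tumors for each tested gene of 25 program lists, with the number tested in parentheses. Red points are genes higher, blue points genes lower and gray points genes not called, and black bars are list medians. The stomach-type list has the highest median (3.01) and the mesenchymal list the lowest (-1.17).

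Of 12 genes taken from those that the study discusses, 2 were higher in lung, 3 lower and 7 not called. The transcription factor genes Klf4, at 247 to 361 CPM in primary tumors and 204 to 342 CPM in lung (-0.35 ± 0.15, adjusted p = 0.076), and Runx1, at 141 to 184 and 120 to 160 CPM (-0.29 ± 0.10, adjusted p = 0.035), stayed under the fold threshold with overlapping groups. Of the KLF family Klf9 alone was called (1.46 ± 0.21) among 15, and 0 of 4 RUNX factors. The cell cycle inhibitor gene Cdkn1c was at 3.8, 2.29, 3.83, 4.27 and 3.73 CPM in the primary tumors and 4.79 to 21.8 CPM (median 9.79) in lung (1.57 ± 0.36, adjusted p = 3.4e-03). Its 3 highest lung levels, 11.5 to 21.8 CPM, were in the libraries with mt-Co3 counts, and without them the log2 fold change was 0.96, below the fold threshold. Id1 is given above. The hyaluronan synthase gene Has2 was lower (-1.93 ± 0.32), as were Wisp1 (-2.14 ± 0.37) and Col6a1, at 1061 to 1384 and 355 to 652 CPM (-1.48 ± 0.15). Il11 (0.94 ± 0.37, adjusted p = 0.059), Itga5 (-0.63 ± 0.17, adjusted p = 0.010) and Ccbe1 (-0.06 ± 0.32, adjusted p = 0.90) were not called.

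The organ difference was then compared between days. No gene differed between day 14 and day 7 at the thresholds (edgeR, interaction of organ and day), 1113 genes did so at an unadjusted p under 0.05, and DESeq2 called 76. Day 14 held 2 primary tumors. For Hnf4a the log2 fold change was 1.43 on day 7 and 1.58 on day 14, for Tff2 3.30 and 2.67, and for Loxl3 -3.79 and -3.42.

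The libraries labelled Smad4 on, 6 from lung and 5 from pancreas, share no library with those above and allow the same comparison. There 1031 of 16037 genes were higher in lung (6.43%) and 1197 lower (7.46%). With scores of leukocytes and endothelium as covariates edgeR called 0 and 0 there, with 572 and 735 at an unadjusted p under 0.05. Summed endothelial RNA itself separated the organs there, at 68.7 to 137 CPM in lung and 31.7 to 46.8 CPM in primary tumors. This covariate and organ can therefore hardly be told apart in that fit. Of the genes higher among libraries labelled off, 1931 of the 1996 tested were higher here too and 816 (40.9%) were called. For genes lower these numbers were 1195 of 1212 and 896 (73.9%). Outside the host RNA set, 459 of 1107 genes higher and 368 of 546 genes lower were called again. Of the 15 named genes higher by adjusted p or fold, all 15 had the same sign and 9 were called, and all 12 lower genes tested were called. Hnf4a differed by 0.63 (adjusted p = 0.079) and Id1 by 0.58 among libraries labelled on, both below the threshold, whereas Myo1a (3.26), Loxl3 (-2.43) and Tgfb3 (-1.93) passed. Of the stomach-type genes 7 of 19 were higher among libraries labelled on and 2 lower, with a median of 1.07. For junction genes 8 of 28 were higher and 1 lower (median 0.56), and for foregut and pancreas factors 8 of 20 and 1 (median 0.95). Whether organ differences themselves differ between labels was not tested.

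**Figure D5:**
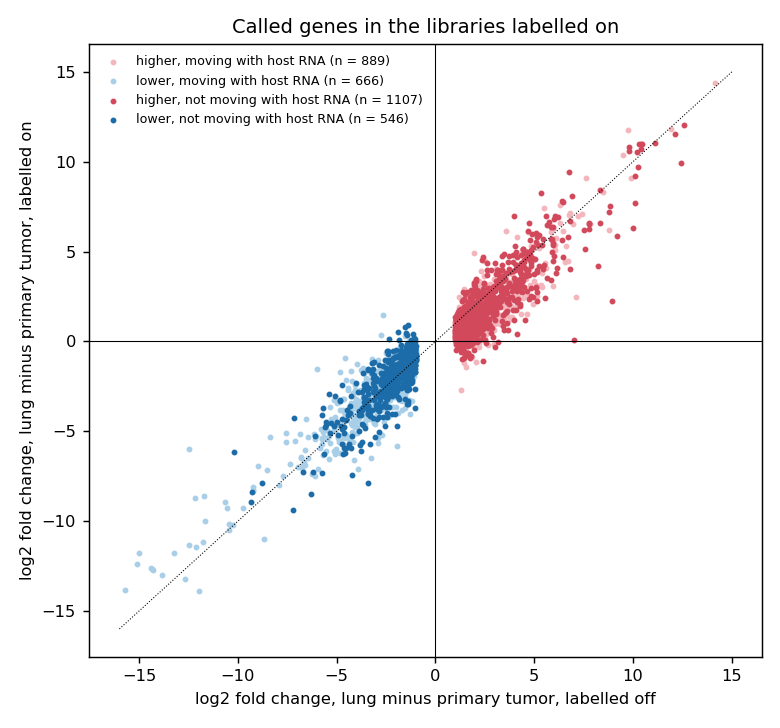
Log2 fold change of lung metastases minus primary tumors in the libraries labelled on (y axis) against that in the libraries labelled off (x axis), for genes called in the latter and tested in both. Red points are genes higher and blue points genes lower, pale where they moved with host RNA, and the dotted line marks equal values. Of the genes higher 1931 of 1996, and of the genes lower 1195 of 1212, keep their sign.

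The 5 liver metastases labelled off give a second metastatic site, in a comparison that shares the lung libraries. One of them (day 7 mouse 2, the only library labelled paired-end) held 31742 CPM of fibroblast markers and 476 CPM of acinar markers, against no more than 4413 and 13.2 CPM in the other 4. Hnf4a was at 58.2 to 345 CPM in liver (lung minus liver 0.44 ± 0.26, adjusted p = 0.35), Gata5 at 14 to 75 CPM (0.88 ± 0.27, adjusted p = 0.067) and Tff2 at 23.6 to 690 CPM (0.32 ± 0.47, adjusted p = 0.77). P2ry2 was higher in lung than in liver (0.76 ± 0.16, adjusted p = 0.0094), also without the paired-end library (0.64, adjusted p = 0.013). Among the 15 genes higher that were named by adjusted p or fold, 2 had an adjusted p under 0.05 against liver and 1 without the paired-end library. Among the 13 named lower genes 8 had an adjusted p under 0.05 against liver and 3 without that library, Col11a1 (-5.05), Loxl3 (-1.34) and Fkbp10 (-2.32).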

How the data were processed

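The authors deposited whole-number counts per gene, not normalized. Reads (75 bp single-end from poly(A) RNA) were trimmed with Trimmomatic 0.36, aligned to GRCm38 with STAR 2.5.3a and counted with featureCounts 1.6.3, per the labels and the study's methods. The strand setting of counting is not given in the sources used here, so that overlapping antisense genes are uncertain. All 35 columns were matched to samples by name and 0 were left over.

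Low genes were removed with filterByExpr at a count of 10 and a total of 15, libraries were TMM-scaled, and the remaining genes were tested with edgeR 4.0.16 in R 4.3.3 (robust quasi-likelihood fit of organ and day over the 13 libraries, Benjamini-Hochberg adjustment). Calls needed a fold over 2 and an adjusted p under 0.05, the study's thresholds. CPM use library totals, and log2 values add 0.5. Standard errors are the fold change divided by the square root of the F statistic. The scripts were tested on simulated data.

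Named genes are the 10 higher and 10 lower of lowest adjusted p and the 5 and 5 of largest fold, outside the host RNA set, predicted genes and genes with overlapping groups. Added to these are the 5 host markers of largest fold in each direction, up to 4 called genes per program list and 12 genes that the study discusses. Some genes that these rules name, and a motif, are not reported here. Members, lists and tests were chosen with earlier results of these data known. Alternatives were DESeq2 1.42.0, other scalings, filters and thresholds, covariates for host RNA, single days, a mouse number block and leaving out each library. Same-numbered mice did not deviate together (r from -0.13 to 0.05), so that numbers were not used as pairs. Promoters came from RefSeq (GRCm38.p6), and figures from matplotlib 3.10.9.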

Additional observations from a re-analysis of the deposited data

Results flagged for a closer look

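For 14 group values of the named genes, 1 library stood apart from the rest of its group by Dixon's criterion, which chance alone meets in about 1 of 20 groups. The 120 named genes each have a lung and a primary tumor group, so that several such values are met by chance alone. For 5 of these genes that library held all the counts of its group, no more than 2. These were the highest primary tumor for Clca4b (0.0311 CPM), Slc9a3 (0.0604 CPM) and Clec2h (0.112 CPM), and the highest lung metastasis for Lrtm1 (0.0466 CPM) and Cpa1 (0.0651 CPM). Among genes with higher levels, the highest primary tumor stood apart for Cldn1 (38.6 CPM), Wisp1 (188 CPM), Wwtr1 (284 CPM), Adamts5 (68.3 CPM) and Gsta1 (0.362 CPM). The lowest primary tumor stood apart for Id1 (23.6 CPM), Cdkn1c (2.29 CPM) and Cxcl12 (27.3 CPM), and the highest lung metastasis for P4ha2 (47.1 CPM). In each of these 14 genes the organs did not overlap, against 20.8% of all tested genes. The rule for naming required this of Clca4b, Slc9a3, Clec2h and Lrtm1, and called genes were preferred for most others.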

How the results depend on the processing

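Genes higher in lung numbered 1130 with at least 10 counts in every library, 3592 with no fold threshold, 899 when tested against a fold of 2 and 996 in the day 14 libraries alone, against 2108. Genes lower numbered 658, 3101 and 743 under the first 3 of these, against 1277. A filter of 10 counts in every library removes genes absent from 1 organ. With scores of leukocytes and endothelium as covariates, 1639 genes were higher and 932 lower. Summed endothelial RNA did not overlap between lung (52.8 to 123 CPM) and primary tumors (25.6 to 41.8 CPM), so that these covariates take up part of the organ difference. Leaving out 1 library at a time gave 1798 to 2170 genes higher and 1205 to 1285 lower. DESeq2 called 76 genes that differed between days, DESeq2's size factors within edgeR 3 and the filter of 10 counts 3, against 0, and leaving out 1 library gave 0 to 0. Among libraries labelled on, the filter left 531 higher and 576 lower, scores of leukocytes and endothelium as covariates left 0 and 0 by edgeR (572 and 735 at an unadjusted p under 0.05), and leaving out 1 library gave 756 to 1089 and 1029 to 1229. At an r of 0.9 the host RNA set held 161 genes higher (7.64%, against 7.64% of all tested genes). It held 166 genes lower at that threshold (12.999% against 6.25%). At 0.5 it held 1360 genes higher (64.5% against 59.6%) and 1053 genes lower (82.5% against 69.4%). The fibroblast score in lung, a measure added after the data were seen, held 284 genes lower (22.2% against 5.58%).

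With a replicate block (mouse number within day), 2074 genes were higher and 1279 lower, 0 differed between days, and 854 and 1120 were called among libraries labelled on. The mouse numbers did not pair the libraries. Under this block H2-D1, Cdkn1c, Junb, Idi1 and Sesn1 were among the genes that lost their calls, as they did in the 10 libraries without mt-Co3 counts. The 2 alternatives are not independent. The 3 lung libraries with mt-Co3 counts have no primary tumor of the same number and day, so that the block takes its organ difference from those 10 libraries.

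Of 120 named genes 113 were called, and 89 of these kept direction and call in every alternative run. Covariates for leukocytes and endothelium reversed Cdkn1c (-0.25), Junb (-0.13) and Idi1 (-0.62). The genes that lost their call with them included Klk1b5, Lrtm1, Spink1, Zeb2, Cldn1, Itga11, Tgfbr2, H2-D1, Gdf15, Klf9, Ifit2, Isg15, Sesn1 and Etv1. Endothelial RNA differed between the organs, so that these covariates and organ are hard to tell apart, and the cause was not tested. Single libraries decided calls near the fold threshold (log2 fold changes in parentheses). Without lung day 7 mouse 4, H2-D1 (0.93), Mmp14 (-0.97), Junb (0.79), Idi1 (1.04) and Oasl1 (0.99) lost theirs. Without primary tumor day 7 mouse 2, so did Etv5 (-0.97), E2f1 (-0.93), Junb (0.96), Idi1 (1.55) and Oasl1 (0.95). Leaving out other single libraries took calls from genes such as Mmp14, Junb, Idi1, Oasl1 and E2f1, and gave one to Il11 in 2 cases. Without lung day 7 mouse 1 or primary tumor day 7 mouse 1, 0 calls were lost. Levels under 0.0932 to 0.248 CPM, 3 counts in these libraries, were not measurable.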

Other observations

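Genes of the intestinal brush border and of enterocytes were gathered into a list after their values were seen, so that its counts are a description with no test. Of 42 listed, 37 were tested, 31 were higher in lung metastases and 2 lower, with a median log2 fold change of 2.92. Of the 37, 13 moved with host RNA, Anpep by the primary tumor libraries and the others by the lung libraries. The shares of all tested genes were 40.2% over the lung libraries and 39.2% over the primary tumors. Without the 3 lung libraries with mt-Co3 counts 30 were higher, and among libraries labelled on 22 of 34 were higher and 2 lower, with a median of 1.65. Alpi, the intestinal alkaline phosphatase, was at 11.7 to 85.0 CPM (median 47.6) in lung and no more than 0.362 CPM in primary tumors. The brush border cadherin gene Cdhr2 was at 19.4 to 81.1 CPM in lung and 0.884 to 3.14 CPM in primary tumors (4.65 ± 0.42). Mep1b, a meprin protease subunit, was at 5.04 to 40.8 CPM in lung and no more than 0.242 CPM in primary tumors. Vil1, which encodes villin, differed less, at 93.2 to 183 and 33.2 to 55.8 CPM (1.45 ± 0.16). In the liver metastases labelled off, means were 40.3 CPM for Cdhr2, 136 for Vil1, 15.4 for Alpi and 8.10 for Mep1b. Lung minus liver was 0.13, -0.06, 1.20 and 0.81 (adjusted p = 0.93, 0.95, 0.35 and 0.54, edgeR), the paired-end library included. The aminopeptidase gene Anpep and Ggt1 were the 2 lower. Alpi and Cdhr2 moved with host RNA in the lung libraries (r of 0.75 and 0.70), and Mep1b and Vil1 did not. With libraries also centered on mt-Co3 counts, Alpi and Cdhr2 no longer did so.

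Marker lists of further host cells gave smaller counts. In lung, 4 of 5 lymphocyte genes, 3 of 6 alveolar type I genes and 2 of 4 adipocyte genes were higher, and 1 alveolar type I gene, Hopx, was lower. Neutrophil genes were higher for 3 and lower for 2 of 8, lung fibroblast genes for 3 and 2 of 8, and mesothelial genes for 2 and 2 of 5. Of 6 genes tested from a hepatocyte list, Apoa1, Apob, Ttr and Serpina1a were higher, while the hepatocyte markers Alb, Fgb, Ahsg and Cps1 were too low to test. Apob is also in the brush border list. The median log2 fold change of 5 red cell genes was -0.49.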
